A study of Mus musculus with 6 samples.

Results

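The liver X receptors (LXRs) and 8 of their target genes were followed in BV2, an immortalised line of mouse microglia, after exposure to FL-ApoE4, the intact human apolipoprotein E4, which carries lipid between cells. These 10 genes were picked by name from the 40202 listed in the deposited table: the receptor genes Nr1h3 and Nr1h2, the cholesterol exporter genes Abca1 and Abcg1, the ubiquitin ligase gene Mylip, and the lipogenic genes Srebf1, Lpcat3, Scd1, Scd2 and Fasn. Total RNA was sequenced from 3 control samples not given FL-ApoE4 and from 3 samples given FL-ApoE4 at 25 µg/ml for 5 h. All 6 came from the same line, of C57BL/6 background, kept in serum-containing medium, and the labels do not say whether controls received the vehicle of the protein. Nothing in them says that replicates were separate cultures, so p-values reflect the spread among the 6 libraries alone, and that spread may be technical.

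LXRα (Nr1h3) and LXRβ (Nr1h2) are nuclear receptors that bind oxidised sterols and, paired with the retinoid X receptor, switch on genes that remove cholesterol from the cell. In macrophages and microglia the exporters encoded by Abca1 and Abcg1 load cholesterol and phospholipid onto apolipoproteins and lipoprotein particles, apoE among them. LXRs also induce Srebf1, whose product SREBP-1 drives fatty acid synthesis, and the enzymes that make and place unsaturated fatty acids in membranes.

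LXR with its partner recognises a direct repeat of a hexamer separated by 4 bases, called DR4. The 250 bases before the annotated start were searched on both strands for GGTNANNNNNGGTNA, a loose form of that repeat in which N is any base and the first base of each hexamer is left free. RefSeq promoters of build GRCm38.p6 were available for 7 of the 10 members, with 10 starts in all, and were read because several of the genes are known LXR targets. A match was present in 3 of these 7 members, Abca1, Fasn and the last of 3 listed starts of Srebf1. Over all mouse genes with a promoter listed, 191 of 27025 had a match. By promoter, a match was present in 3 of the 10 starts of members, against 0.621% of 32851 mouse promoters (204). These 3 windows are given 5′ to 3′ on the strand of the gene, with the match in capitals. They lie at chr4:53159896-53160145 for Abca1, chr11:120824548-120824797 for Fasn and chr11:60210472-60210721 for Srebf1, all on the minus strand.
Abca1: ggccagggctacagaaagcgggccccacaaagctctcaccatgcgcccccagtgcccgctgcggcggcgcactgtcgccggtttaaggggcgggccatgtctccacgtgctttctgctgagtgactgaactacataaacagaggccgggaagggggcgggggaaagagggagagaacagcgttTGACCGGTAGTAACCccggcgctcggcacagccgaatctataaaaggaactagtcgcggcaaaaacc
Fasn: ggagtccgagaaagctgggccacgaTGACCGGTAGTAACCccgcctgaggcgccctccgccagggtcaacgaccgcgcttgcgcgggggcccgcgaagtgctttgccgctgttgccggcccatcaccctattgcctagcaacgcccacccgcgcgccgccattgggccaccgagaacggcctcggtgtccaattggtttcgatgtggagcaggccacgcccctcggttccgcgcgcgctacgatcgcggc
Srebf1: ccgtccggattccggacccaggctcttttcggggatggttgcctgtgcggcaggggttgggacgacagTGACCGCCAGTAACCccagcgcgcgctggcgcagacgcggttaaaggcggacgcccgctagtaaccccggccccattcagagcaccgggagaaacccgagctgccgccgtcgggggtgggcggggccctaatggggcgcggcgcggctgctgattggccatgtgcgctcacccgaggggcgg
The match began 67 bases before the start of Abca1, 225 before that of Fasn and 182 before that of Srebf1. In each of the 3 it read on the strand opposite to the gene. The 15 matched bases of Abca1 and Fasn were the same, and those of Srebf1 differed from them at 2 positions, G7C and T8C, counted from 1 at the first capital, with the Abca1 base given first. The matches are a description of letters in these windows. The table of reads gives Srebf1 as a single value, so transcripts from its 3 starts were not told apart.

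Libraries held 45700128 to 54965393 reads assigned to genes. Values are normalised reads, the authors' reads per gene divided by a size factor per library. Of the 11 microglial and macrophage markers 9 were above a mean of 10, and P2ry12 and Sall1 were listed at 0. Summed markers of neurons were at 77.8 to 85.7 in controls and 59.3 to 80.3 with FL-ApoE4, those of astrocytes at 28.5 to 43.4 and 23.5 to 30.6, those of endothelium at 15.1 to 20.6 and 20.1 to 26.0, and those of adipocytes and hepatocytes at or under 10.4 and 2.17 in every library. Oligodendrocyte markers, read almost wholly from Mbp, were at 1059 to 1139 and 1097 to 1191, while Mog and Sox10 were near 0. The microglial and macrophage markers themselves summed to 116389 to 124002 in controls and 136220 to 145535 with FL-ApoE4, without overlap; all 9 that were tested had a difference above 0, and their part in the values below was not tested. A library of each group stood apart. The root mean square log2 difference over tested genes was 0.44 and 0.45 between control replicate 1 and the others and 0.26 between those, and 0.34 and 0.33 against 0.30 for FL-ApoE4 replicate 1. Differences of the members were therefore also computed without these libraries, and those of other genes without control replicate 1, which are given where they moved by over 1.5 times. Differences are on the log2(value + 1) scale, FL-ApoE4 minus control, with the SE from limma. In RNA from whole cultures, fewer expressing cells and less RNA per cell cannot be told apart.

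None of the 10 members passed limma's threshold of an adjusted p under 0.05 when all 6 libraries were used, and neither did any of the 14079 genes tested (0% called by limma, and 0% by edgeR). All 10 members passed the filter on low values. Abcg1, Scd2, Nr1h3, Srebf1 and Mylip had every FL-ApoE4 library above every control library, Abca1 had every one below, and Nr1h2, Lpcat3, Scd1 and Fasn overlapped. Over all tested genes, 11.1% lay wholly above and 10.9% wholly below (21.9% in all). The 5 members that lay wholly above also had an unadjusted p under 0.05, which 6.81% of all genes had in that direction (6.33% lower, 13.1% in either). With control replicate 1 left out, Nr1h3, Abcg1 and Scd2 rose by limma, 3 of 10 members, against 2.93% of all genes called higher (1.69% lower, 4.62% in either direction). The same 3 members were called higher without control replicate 1 by edgeR (3.01% of all genes). They were also called higher in that setting by DESeq2 (4.36% of the 12441 genes it gave an adjusted p). Limma without both libraries that stood apart called them higher too (7.02% of all genes, and 12.6% in either direction). With all 6 libraries DESeq2 on the recovered reads called Nr1h3 and Abcg1 higher. Of the 12711 genes it gave an adjusted p, it called 1.5% higher and 2.91% in either direction. All fits without control replicate 1 rest on control replicates 2 and 3, which were the most alike controls. The fit without both libraries also rests on FL-ApoE4 replicates 2 and 3, the most alike of that group. The p-values of all these fits may therefore be too small. The median difference over the 10 members was 0.20 with all libraries and 0.09 without control replicate 1, beside 0.00 (0.0011) over all tested genes. In the authors' deposited table, which reports DESeq2 statistics, Nr1h3 (log2 fold change 0.27, adjusted p = 0.016) and Abcg1 (0.53, adjusted p = 0.00995) were below 0.05, as were 2.85% of the genes given an adjusted p (1.51% higher), and Scd2 had 0.0510.

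**Figure D1:**
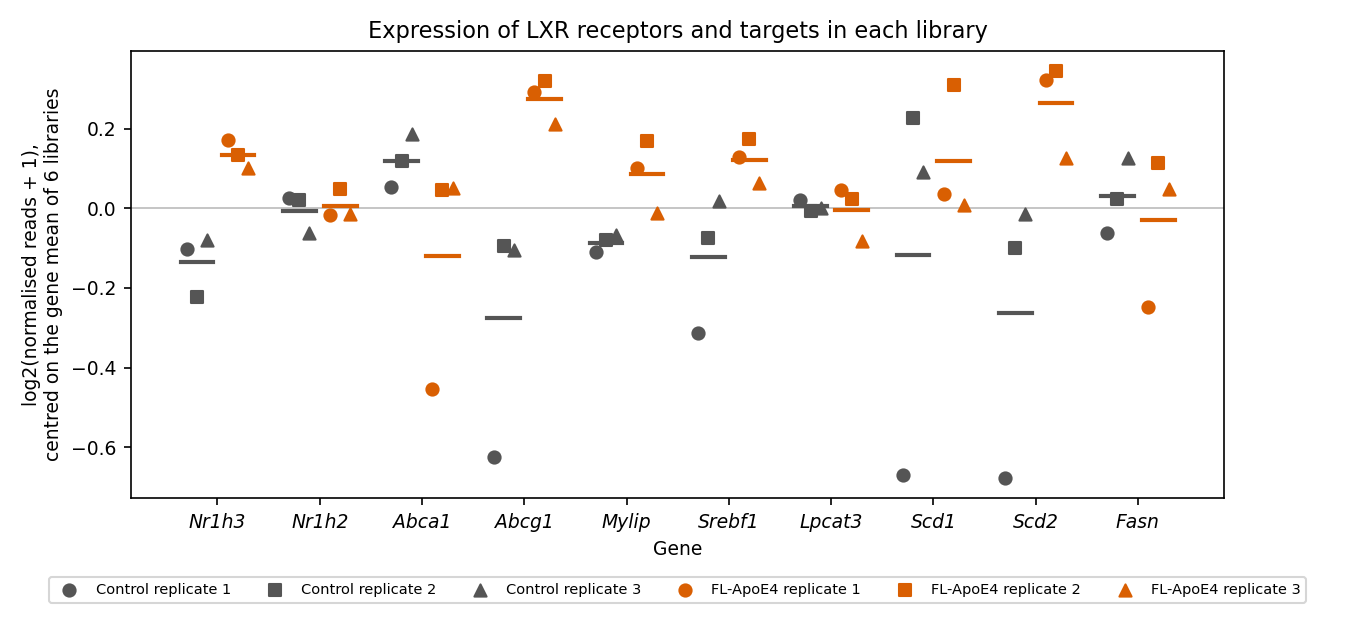
Expression of the 10 members in each library, as log2(normalised reads + 1) centred on the mean of the 6 libraries. Grey points are controls, orange points FL-ApoE4, the shape gives the replicate and bars the group means; Abcg1 and Scd2 lie apart in control replicate 1, and Abca1 and Fasn in FL-ApoE4 replicate 1.

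Of the receptors, only Nr1h3 had groups that did not overlap. Nr1h3, which encodes the LXRα of macrophages and liver, was at 2773, 2553 and 2818 normalised reads in control replicates 1 to 3 and at 3351, 3267 and 3193 with FL-ApoE4. The lowest treated library was above the highest control, and the means were 2715 ± 142 and 3270 ± 79.1 (SD, n = 3 each). Its log2 difference was 0.27 ± 0.06 (limma adjusted p = 0.155). It rose by 0.29 without control replicate 1 (limma adjusted p = 0.0339). Nr1h2, which encodes the widely expressed LXRβ, was at 3065, 3051 and 2881 normalised reads in controls and 2974, 3113 and 2983 with FL-ApoE4. Here the groups overlapped throughout, and the log2 difference was 0.01 ± 0.05 with a 95% interval of -0.11 to 0.14. The spread within groups was small for both receptors, with a coefficient of variation between 2.42% and 5.22%.

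Scaled by the length of their annotated exons, the receptor transcripts were of the same order. Nr1h3 was at 1079 ± 56.3 normalised reads per kilobase in controls and 1300 ± 31.4 with FL-ApoE4, and Nr1h2 at 894 ± 30.5 and 901 ± 23.2. The ratio of Nr1h3 to Nr1h2 on this per-length scale was 1.21, 1.12 and 1.3 in the controls and 1.50, 1.40 and 1.43 in the treated libraries. These ratios did not overlap between groups. They depend on exon lengths from another annotation (GENCODE M21), 2515 bases for Nr1h3 and 3354 for Nr1h2, which scale all libraries alike. The longest transcripts have 1985 and 1999 bases, and the unscaled control means were 2715 and 2999. Which receptor is higher in controls therefore depends on the length used.

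The cholesterol exporters had differences of opposite sign. Abcg1, whose product moves sterol to lipoprotein particles, was at 2646, 3815 and 3790 normalised reads in controls and at 4986, 5085 and 4719 with FL-ApoE4. Control replicate 1 was the lowest of the 6, and even the other controls lay below every treated library. The group means were 3417 ± 668 and 4930 ± 189 (SD, n = 3 each), a ratio of 1.44. Its log2 difference was 0.55 ± 0.14 (limma adjusted p = 0.191). It was 0.37 without control replicate 1 (limma adjusted p = 0.00634) and 0.37 without both libraries that stood apart (adjusted p = 0.000195). Both of these fits rest on the most alike controls, so their p-values may be too small.

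Abca1, whose product hands cholesterol to lipid-poor apolipoproteins, was at 7848, 8212 and 8603 normalised reads in controls. With FL-ApoE4 it was at 5528, 7812 and 7837. The groups did not overlap, but replicates 2 and 3 of FL-ApoE4 lay just under the lowest control, and only FL-ApoE4 replicate 1 lay far below. The means were 8221 ± 378 and 7059 ± 1326 (SD, n = 3 each). The log2 difference of -0.24 ± 0.13 had a 95% interval of -0.55 to 0.07 (limma adjusted p = 0.499). Leaving out FL-ApoE4 replicate 1 brought it to -0.07, leaving out both libraries that stood apart to -0.10 (limma adjusted p = 0.0824), and removal of each library's trend with length and GC content to -0.17.

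The balance of the exporters did not overlap between the groups. This follows from Abcg1 lying wholly above and Abca1 wholly below the controls, and is a description. Abcg1 minus Abca1, on the log2(value + 1) scale, was -1.57, -1.11 and -1.18 in control replicates 1 to 3 and -0.15, -0.62 and -0.73 with FL-ApoE4. The difference of the group means was 0.79, and it was 0.47 without both libraries that stood apart. Per kilobase of exon, the ratio of Abcg1 to Abca1 was 0.479, 0.660 and 0.626 in controls and 1.28, 0.924 and 0.855 with FL-ApoE4. The level of this ratio depends on the length used, and its order among libraries does not. No test was made of this ratio, since the genes were chosen with results known and 3 samples against 3 cannot give an exact p under 0.10.

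**Figure D2:**
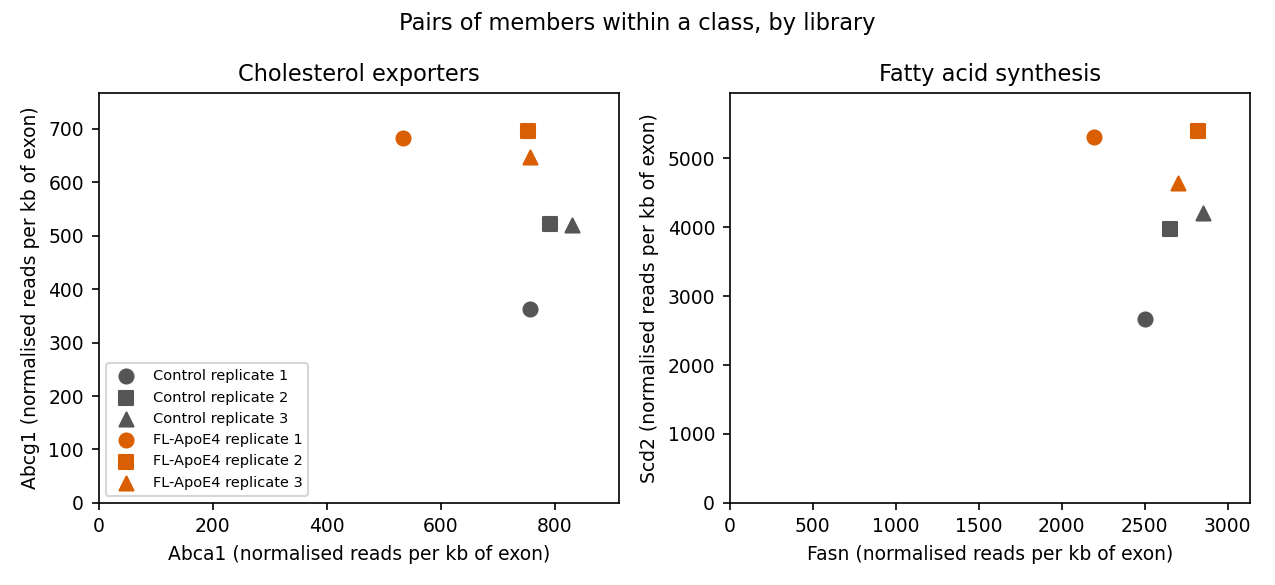
Left, Abcg1 against Abca1, and right, Scd2 against Fasn, in normalised reads per kilobase of exon, with a point for each of the 6 libraries. Treated libraries (orange) lie above controls (grey) on both vertical axes, while on the horizontal axes FL-ApoE4 replicate 1 lies to the left.

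Mylip, the LXR-induced ubiquitin ligase that marks lipoprotein receptors for breakdown, was at 1662, 1696 and 1710 normalised reads in controls and 1922, 2014 and 1780 with FL-ApoE4. The controls were close together, and all treated libraries lay above them. The log2 difference was 0.17 ± 0.06 (limma adjusted p = 0.314), and it ranged from 0.13 to 0.22 when each library was left out in turn.

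Differences of the lipogenic genes were mixed. Srebf1, which encodes the SREBP-1 transcription factor, was at 5588, 6592 and 7030 normalised reads in controls and at 7580, 7822 and 7254 with FL-ApoE4. Control replicate 1 was again the lowest, and control replicate 3 came near the lowest treated library. The log2 difference of 0.24 ± 0.09 (limma adjusted p = 0.295) was 0.15 without control replicate 1 (limma adjusted p = 0.176).

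Scd2, the stearoyl-CoA desaturase typical of brain, had the largest lipogenic difference. It was at 14549, 21682 and 23018 normalised reads in controls and 29039, 29513 and 25381 with FL-ApoE4. All treated libraries were above all controls, with control replicate 1 far below the rest. The means were 19750 ± 4553 and 27978 ± 2262 (SD, n = 3 each), a ratio of 1.42. The log2 difference was 0.53 ± 0.17 (limma adjusted p = 0.247). It rose by 0.32 without control replicate 1 (limma adjusted p = 0.0391).

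Scd1, the desaturase that predominates in liver and fat, was read at a far lower level per length. It had 16, 35 and 32 reads in controls and 26, 38 and 29 with FL-ApoE4, so counting error is large and the groups overlapped. On that scale Scd1 was at 5.50 ± 1.72 normalised reads per kilobase in controls, where Scd2 was at 3615 ± 833. Of all 50-base stretches of annotated Scd1 transcripts, 2.97% also occur in Scd2, so some of the few Scd1 reads could belong to either gene. The log2 difference of Scd1 was 0.24 ± 0.28, and -0.04 without control replicate 1, in which Scd1 was lowest.

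Fasn, which encodes the fatty acid synthase, was at 27375, 29053 and 31196 normalised reads in controls and 24047, 30897 and 29534 with FL-ApoE4. The groups overlapped, and FL-ApoE4 replicate 1 was the lowest of the 6. The log2 difference was -0.06 ± 0.10 with a 95% interval of -0.29 to 0.17, and it was 0.05 without FL-ApoE4 replicate 1. Lpcat3, which places polyunsaturated fatty acids in membrane phospholipids, was at 1895, 1860 and 1868 normalised reads in controls and 1928, 1898 and 1766 with FL-ApoE4. It varied least among controls, with a coefficient of variation of 0.986%. Its log2 difference was -0.01 ± 0.06, with a 95% interval of -0.14 to 0.13.

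Set against each other, efflux and lipogenic genes did not separate. The mean log2 value of the 2 exporters minus that of the 5 lipogenic genes was 0.93, 0.88 and 0.87 in controls and 0.74, 0.87 and 0.98 with FL-ApoE4. These values overlapped, and the group means of 0.89 ± 0.03 and 0.86 ± 0.12 (SD, n = 3 each) differed by -0.03. The median log2 difference was 0.16 for the exporters and 0.24 for the lipogenic genes. That lipogenic median was the value of Scd1, which rests on 16 to 38 reads per library. Scd1 also has equal weight in the mean of the 5 lipogenic genes above. Without control replicate 1 the lipogenic median was -0.00 (-0.0011), the value of Lpcat3. Within each class the values differed, between Abcg1 and Abca1 and between Scd2 and Fasn. Scd2 and Fasn had the highest and the lowest difference of the 5 lipogenic genes and were paired after their values were seen, so the gap between them follows from that choice and is a description. Scd2 minus Fasn was -0.91, -0.42 and -0.44 (log2) in controls and 0.27, -0.07 and -0.22 with FL-ApoE4, which did not overlap. Without both libraries that stood apart, the log2 differences were 0.29 for Scd2 and 0.00 (0.0049) for Fasn.

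The promoter windows can be read beside these differences. Abca1 and Fasn, with identical matches, had log2 differences of -0.24 and -0.06, and Srebf1, with a match at its last start, had 0.24. Among the members whose windows were searched without a match, Nr1h3 and Mylip had 0.27 and 0.17, and Nr1h2 and Lpcat3 had 0.01 and -0.01. No window was available for Abcg1, Scd2 and Scd1, which had 0.55, 0.53 and 0.24. The largest differences are therefore missing here, and no relation of matches to differences was tested.

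**Figure D3:**
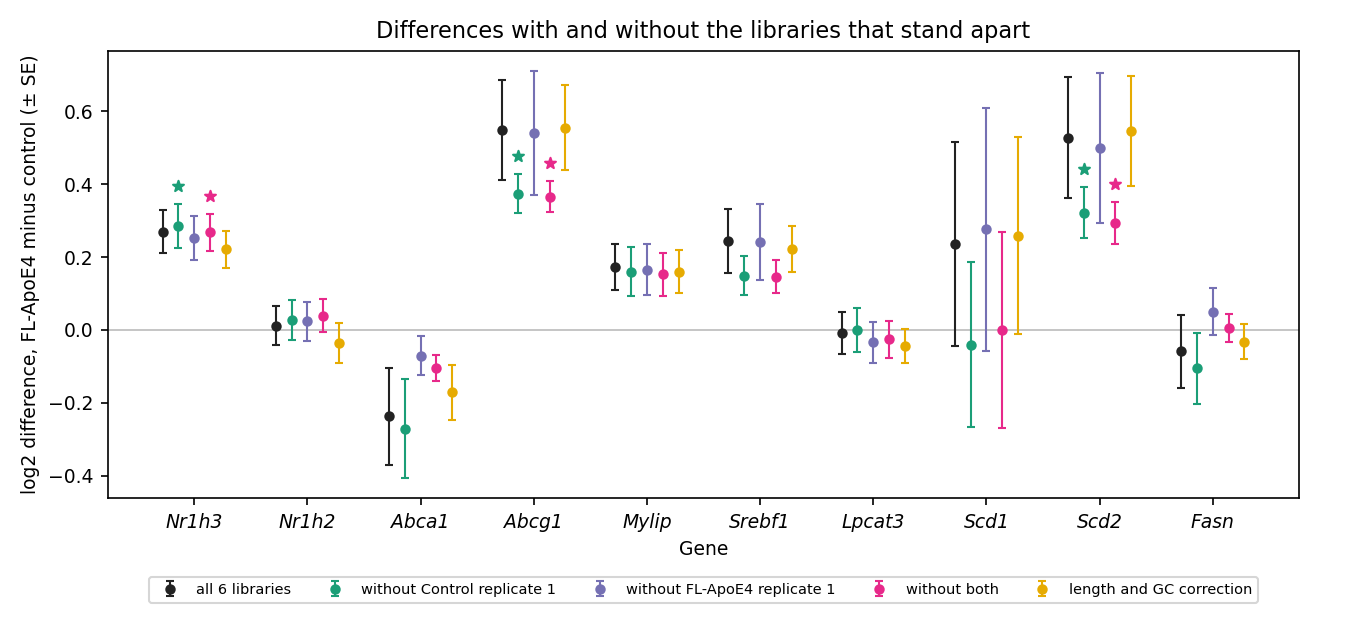
The log2 difference of each member, FL-ApoE4 minus control, with its SE from limma, for all 6 libraries, without control replicate 1, without FL-ApoE4 replicate 1, without both, and after removal of each library's trend with length and GC content. A star marks an adjusted p under 0.05; stars appear over Nr1h3, Abcg1 and Scd2 where control replicate 1 is left out.

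The libraries that stood apart touched different members. Control replicate 1 was lower than the mean of the other controls by a log2 of -0.83 for Scd1, -0.62 for Scd2, -0.52 for Abcg1 and -0.28 for Srebf1, while Nr1h3, Nr1h2, Mylip and Lpcat3 were within 0.05 of it. Over all tested genes the central 90% of such deviations in that library ran from -0.61 to 0.69. In the same library Tnf, an inflammatory cytokine gene, was at 44899 normalised reads against 14765 and 13289 in the other controls. With FL-ApoE4 Tnf was at 8727, 8247 and 8703, below every control. Its log2 difference was -1.27 ± 0.41 (limma adjusted p = 0.261), and -0.71 without control replicate 1 (limma adjusted p = 0.000841). The part of Tnf and of the state it marks in the low Scd2 and Abcg1 values was not tested. Differences of these genes were smaller without that library but kept their direction, at 0.32 for Scd2 and 0.37 for Abcg1.

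FL-ApoE4 replicate 1 was lower than the other treated libraries by a log2 of -0.50 for Abca1 and -0.33 for Fasn. These are the members with the longest transcripts, of 10262 and 10050 annotated bases. The other 8 members, of 1985 to 5832 bases, deviated by -0.12 to 0.09. Over the 713 tested genes whose longest transcript has at least 8000 bases, the median deviation of that library was -0.27, and over the 847 genes under 1000 bases it was 0.14. Across 12959 genes, which are not independent replicates, Spearman's rho of the deviation with transcript length was -0.46. In control replicate 1 the same classes of length had medians of -0.14 and 0.03. Abca1 and Fasn, at -0.10 and -0.14, lay near the median for their length, whereas Scd2, Abcg1 and Srebf1 lay below that for theirs. After removal of the trend with length and GC content, Abca1 was at 12.62 (log2) in FL-ApoE4 replicate 1. It was then at 12.89 in each of the other treated libraries. Fasn was at 14.71 against 14.84 and 14.81. The part of transcript length in these values was not tested.

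**Figure D4:**
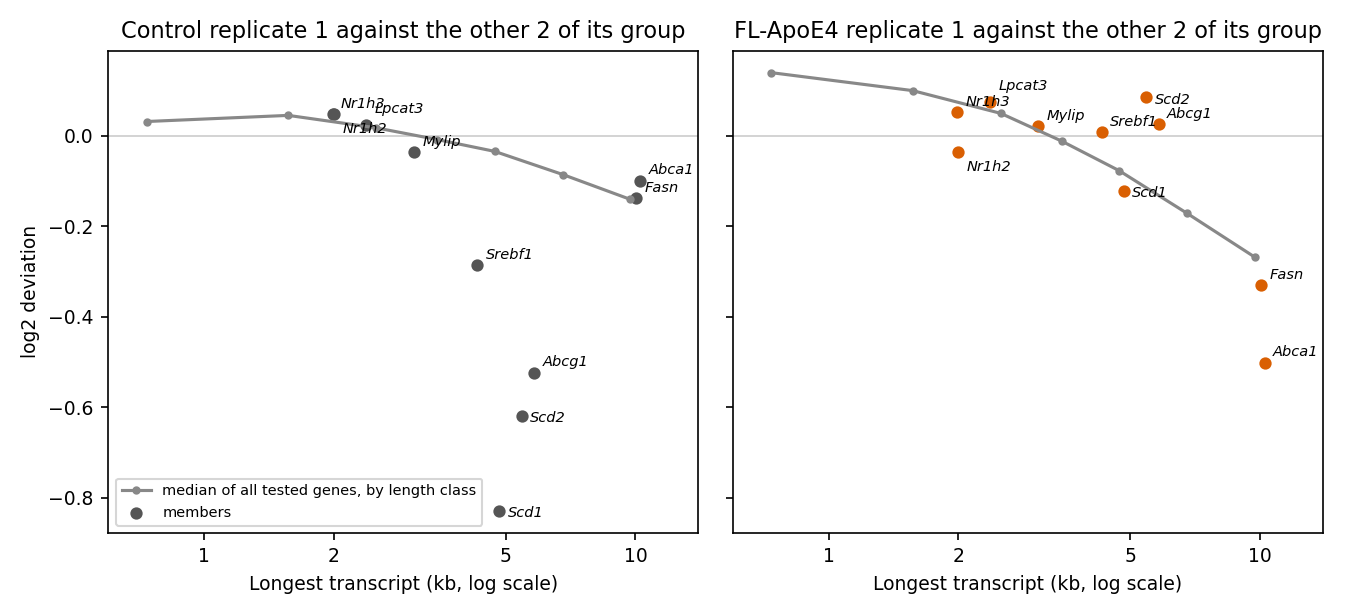
Deviation (log2) of control replicate 1, left, and FL-ApoE4 replicate 1, right, from the mean of the other libraries of the group, against the longest annotated transcript on a log axis. The grey line joins medians of all tested genes by length class; in FL-ApoE4 replicate 1 it falls from 0.14 to -0.27, and Fasn and Abca1 lie under its lower end.

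Genes whose profile over the 6 libraries was most like that of each exporter were found by the root mean square difference of centred log2 values. For Abca1 they were Polq (0.029), Trip11 (0.033) and Crybg3 (0.037), beside a median of 0.25 over all other genes, and Fasn was the nearest member, at place 309 of 14078. These 3 genes also have long transcripts, of 8628 to 10454 bases. For Abcg1 they were 2610507I01Rik (0.030), Paqr7 (0.035) and Dusp7 (0.043), beside a median of 0.35, and Scd2 was at place 12. Polq was at 1990, 2067 and 2151 normalised reads in controls and 1367, 1881 and 1886 with FL-ApoE4. 2610507I01Rik was at 724, 1012 and 1038 and at 1291, 1372 and 1287.

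Around the members, 99 further genes of LXR and lipid metabolism were read in 7 lists, of which 81 passed the filter. None was called by limma with all 6 libraries. Unadjusted, 9 were higher and 2 lower at a p under 0.05, beside 6.81% and 6.33% of all genes. In 19 every treated library was above every control and in 3 below, beside 11.1% and 10.9% of all genes. Differences above 0 were seen in 59 of the 81, with a median of 0.05 (0.02 without control replicate 1), where 50.3% of all tested genes were above 0. Without control replicate 1 limma called 3 of the 81, a share near that of all genes (4.62%; 2.93% higher and 1.69% lower). Of these, Lpcat2 was higher (0.29, limma adjusted p = 0.0444), and Plin2 (-0.29, adjusted p = 0.0297) and Nceh1 (-0.29, adjusted p = 0.0351) were lower. With all 6 libraries they had log2 differences of 0.06, -0.22 and -0.08. Lpcat2 is a lysophospholipid acyltransferase of inflammatory cells, Plin2 coats lipid droplets and Nceh1 hydrolyses cholesteryl ester, and these 3 were named after their values were seen.

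In the list of other LXR targets 10 of 18 genes passed the filter, 9 with a difference above 0 and a median of 0.09 (0.06 without control replicate 1). Apoe, the mouse counterpart of the protein added and itself an LXR target, was at 83856, 86208 and 76583 normalised reads in controls and 88734, 85025 and 77234 with FL-ApoE4. The groups overlapped, at a log2 difference of 0.02 ± 0.07 (0.04 without control replicate 1). Lpl, the lipoprotein lipase, was at 210339, 211502 and 221934 and at 253281, 240367 and 235278, so that every treated library was above every control. Its log2 difference was 0.18 ± 0.05 (limma adjusted p = 0.228), and 0.16 without control replicate 1 (limma adjusted p = 0.144). Mertk, a receptor for the uptake of dying cells, was at 705 in control replicate 1 and at 2010 and 2108 in the other controls, with 2153, 2796 and 2526 in treated libraries. Its log2 difference was 0.78 ± 0.39, and 0.27 without control replicate 1. Cd36, a fatty acid and lipoprotein scavenger receptor, was at 57.1 ± 3.40 and 46.5 ± 5.55 (log2 difference -0.30 ± 0.16), and Apoc2, Apoc4, Cd5l and Vldlr were listed at 0 in every library.

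Partners and cofactors of LXR, retinoid X receptors and the corepressor and coactivator proteins, had 15 of 16 genes past the filter, with 10 above 0 and a median of 0.03 that was -0.10 without control replicate 1. The lowest p in that list belonged to Med1, a Mediator subunit (log2 difference -0.11 ± 0.08), Crebbp, a histone acetyltransferase (-0.13 ± 0.11), and Tbl1xr1, a corepressor subunit (0.09 ± 0.08, and 0.02 without control replicate 1), and all 3 overlapped between groups. Fatty acid synthesis and desaturation had 15 of 19 past the filter, 11 above 0, with a median of 0.03. Mcat, of mitochondrial fatty acid synthesis, had 0.18 ± 0.06, Acss2, which makes acetyl-CoA from acetate, 0.31 ± 0.11, and the elongase gene Elovl1 0.09 ± 0.05. In these 3 genes every treated library was above every control.

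Genes of SREBP processing had a median of 0.01 over 9 of 10, with 5 above 0, and of -0.01 (-0.0082) without control replicate 1. Insig2, which retains SREBP in the endoplasmic reticulum, had a log2 difference of -0.20 ± 0.10, which was -0.10 (-0.098) without control replicate 1. Erlin1 and Erlin2, of the sterol-regulated degradation machinery, had 0.07 ± 0.05 and 0.06 ± 0.05. Insig1 was listed at 0. Enzymes that make or remove sterol ligands had a median of 0.18 over 6 of 9 genes, 5 of them above 0, and of 0.08 without control replicate 1. Dhcr7, of the last steps of cholesterol synthesis, was at 2501 ± 85.9 and 2856 ± 82.9 normalised reads (SD, n = 3 each). Cyp27a1, the sterol 27-hydroxylase, had a log2 difference of 0.24 ± 0.14, and the sulfotransferase gene Sult2b1 0.17 ± 0.11. Without control replicate 1 these were 0.06 and 0.10 (0.098).

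Sterol storage and transport had 16 of 16 genes past the filter, 10 above 0 and a median of 0.03 (0.02 without control replicate 1). Soat2, which esterifies cholesterol, was at 1719, 1871 and 1777 normalised reads in controls and 1404, 1218 and 1590 with FL-ApoE4, each treated library below each control (log2 difference -0.36 ± 0.10, limma adjusted p = 0.216). The sterol carrier gene Stard4 had 0.21 ± 0.06 and the transporter gene Abcd4 0.24 ± 0.07. Phospholipid acyltransferases and related enzymes had 9 of 10 differences above 0, with a median of 0.08 that did not change without control replicate 1, among them Agpat3 (0.13 ± 0.06), Mboat1 (0.17 ± 0.07) and Pcyt1a (0.15 ± 0.08, and 0.08 without control replicate 1).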

How the data were processed

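RNA of 6 BV2 samples was sequenced, 3 per group. The submitters' processing notes list HISAT2 2.2.1, FastQC 0.11.8, DESeq2 1.30.1 and HTSeq, and the mouse build GRCm39; settings, counting by strand included, were not given in the sources at hand. The authors deposited a normalised signal per gene and library. Divided by the smallest value of its column, each value came out whole (tolerance 0.01, 100% of values), which gave back the reads. The authors' deposited table also gives a log2 fold change, a p-value, an adjusted p-value and a Wald statistic score per gene.

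Differences were tested mainly with limma 3.58.1 (R 4.3.3, mean-variance trend, two-sided, Benjamini-Hochberg over all genes tested) on log2(value + 1) for the 14079 genes with a mean of at least 10. This scale understates changes of low genes. On the recovered reads, edgeR 4.0.16 called 0 genes and DESeq2 1.42.0 called 370. The limma, edgeR and DESeq2 tests of 3 against 3 libraries were also run on simulated counts. Means were taken from these data, and dispersions from their trend with the mean. That simulation held no library that stood apart and no trend with length. The changes put into it were larger than that of any member, so it does not show how often differences of their size are called. Exon and transcript lengths and GC content came from GENCODE M21 (GRCm38), known for 92.0% of tested genes; promoters came from RefSeq (GRCm38.p6). The members and gene lists were chosen with earlier results of these data known. Named genes are the 10 members, up to 3 genes of lowest p in each pathway list, 3 genes most like each exporter, and Apoe; Tnf, Lpcat2, Plin2, Nceh1 and the genes listed at 0 were added after their values were seen. A further 2 genes were taken off the lists and are not reported here. Intervals do not cover differences between cultures.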

Additional observations from a re-analysis of the deposited data

How the results depend on the processing

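With each library left out in turn, limma called 0 to 651 of all genes and 0 to 3 of the members. Over the same fits the lipogenic median ran from -0.0011 to 0.31, the efflux median from 0.05 to 0.23, efflux minus lipogenic from -0.09 to 0.03 and Abcg1 minus Abca1 from 0.61 to 0.90. Calls over all genes, and of members, were 370 and 2 (Nr1h3 and Abcg1) with DESeq2, and over all genes 21 with the length and GC correction and 1 with no filter beyond a mean above 0. Among settings chosen after seeing the data, and without control replicate 1, edgeR called 691 genes and 3 members and DESeq2 959 and 3. Without control replicate 1 and FL-ApoE4 replicate 1, limma called 1767 genes (12.6%) and 3 members, with a lipogenic median of 0.0049 and Abcg1 minus Abca1 of 0.47. The members called in these last 3 fits were Nr1h3, Abcg1 and Scd2. DESeq2 gave log2 differences of 0.26 for Nr1h3 (DESeq2 adjusted p = 0.0173) and 0.53 for Abcg1 (0.0102).

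Nr1h2, Lpcat3, Scd1 and Fasn changed sign in some settings. With a library left out, or both that stood apart, Nr1h2 ran from -0.017 to 0.039, Lpcat3 from -0.034 to 0.029, Scd1 from -0.041 to 0.41 and Fasn from -0.13 to 0.051. Scd1 was negative without control replicate 1 (-0.041), Fasn positive without FL-ApoE4 replicate 1 (0.051), and without both they were at -0.00048 and 0.0049. Nr1h2 was at -0.035 with the length and GC correction, with or without the replicate block. For these reversals the cause was not tested. In each setting tried, Nr1h3, Abcg1, Mylip, Srebf1 and Scd2 stayed above 0 and Abca1 below it.

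Same-numbered libraries of the 2 groups deviated together by correlations across genes of 0.13, 0.07 and -0.03. Libraries with unlike numbers ran from -0.16 to 0.16. These values cannot settle whether the numbers pair the samples, and the labels do not say. With the replicate block limma called 0 genes and 0 members. The limma SE with the block was 0.09 for Abca1 and 0.06 for Fasn, beside 0.13 and 0.10 without it. Scd1 rests on 16 to 38 reads per library, and its 95% interval ran from -0.42 to 0.89. The setting with a mean of at least 50 gave no value for Scd1 or for the lipogenic summaries.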
